A study of Mus musculus with 7 samples.

Results

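Trp63, Klf4, Klf5, Grhl1, Grhl3, Ovol1, Zfp750, Tfap2a, Prdm1 and Bnc1 encode transcription factors that set the fate of keratinocytes, the cells that build the epidermis. The 10 genes were taken by symbol from a footprint table of 13167 transcripts with 13047 distinct symbols; each symbol had 1 transcript there, and all 10 were listed in every library and passed the count filter. The libraries were ribosome profiling libraries of primary mouse epidermis, 2 from a transgenic knockout of Pelota (KO; Pelo encodes a factor that helps to release stalled ribosomes) and 2 from wild type (WT). RNA-seq libraries named in the labels (2 KO, 1 WT) were not analysed here. The sources used here do not give the strain, age and sex of the mice, the promoter or cell type that drove the deletion, its timing or the number of animals per library. Ribosome profiling counts the mRNA fragments that ribosomes protect, and a difference may lie in the amount of an mRNA or in the ribosomes on each copy. In such bulk tissue, fewer cells of a type and less RNA per cell cannot be told apart.

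In the epidermis, basal keratinocytes divide on the basement membrane, and cells that leave it pass through spinous and granular layers to the cornified surface. p63 (Trp63) maintains the basal state and opens epithelial genes, while Klf4, Zfp750, Grhl3, Ovol1 and Prdm1 act in later steps, from commitment to the formation of the barrier. Several of the factors act on each other's genes: in human keratinocytes, for example, p63 is known to switch on the human counterpart of Zfp750, which in turn acts through KLF4.

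Total coding footprints ran from 4221675 to 5282276 per library. Pelo held 24 and 21 coding footprints in KO replicates 1 and 2 against 101 and 61 in WT replicates 1 and 2, a fall by 1.65 on the log2 scale (SE 0.24, edgeR adjusted p = 0.000807), and footprints remained in both KO libraries. Replicate counts were further apart than counting error, by a chi-square of at least 5.47 per gene in either genotype. Nothing in the labels ties replicates to separate animals, so p-values measure the spread between these libraries, which may be technical. The footprint shares of cell type markers differed between the genotypes. All 10 markers of suprabasal keratinocytes were listed in all 4 libraries and together took 7.46% and 6.78% of coding footprints in the knockout against 3.42% and 2.85% in wild type. The 8 basal markers took 2.47% and 2.25% against 1.64% and 1.76%. Most of that sum was Krt5 (54652 and 42552 footprints against 34933 and 30379) and Krt14 (51320 and 43868 against 15229 and 14401). The rest of the basal list together took a lower share in the knockout. The 6 wound-type markers, among them Krt6a and Krt16, took 2.38% and 2.65% against 0.578% and 0.677%. The 9 dermal fibroblast markers, which epidermis alone should lack, were also all listed and took 4.12% and 4.71% in the knockout against 8.82% and 13.1% in wild type. The part of these differences in the results that follow was not tested.

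Coding footprints on 6 of the 10 factors rose in the knockout: Prdm1, Ovol1, Bnc1, Tfap2a, Grhl3 and Zfp750. None of the 10 fell. Klf5, Klf4, Trp63 and Grhl1 did not pass the test, an edgeR quasi-likelihood test over all genes with a Benjamini-Hochberg adjusted p under 0.05. Among all 10953 tested genes 39.0% were called, 19.9% higher and 19.1% lower. The median log2 change of the 10 was 0.47, against −0.02 over all tested genes. Both KO libraries stood above both WT libraries, after normalisation, for 8 of the 10, a pattern shown by 35.4% of all tested genes, and the libraries overlapped for Klf4 and Grhl1. Scaling to library totals in place of TMM factors moved the median of all genes by −0.18; under it Prdm1, Ovol1, Bnc1 and Tfap2a kept their calls, Zfp750 (0.28, adjusted p = 0.121) and Grhl3 (0.30, adjusted p = 0.153) lost theirs, and Trp63 (−0.07), Klf4 (−0.06) and Grhl1 (−0.13) stood on the other side of 0 without passing. Changes given below are relative to the TMM scaling.

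**Figure D1:**
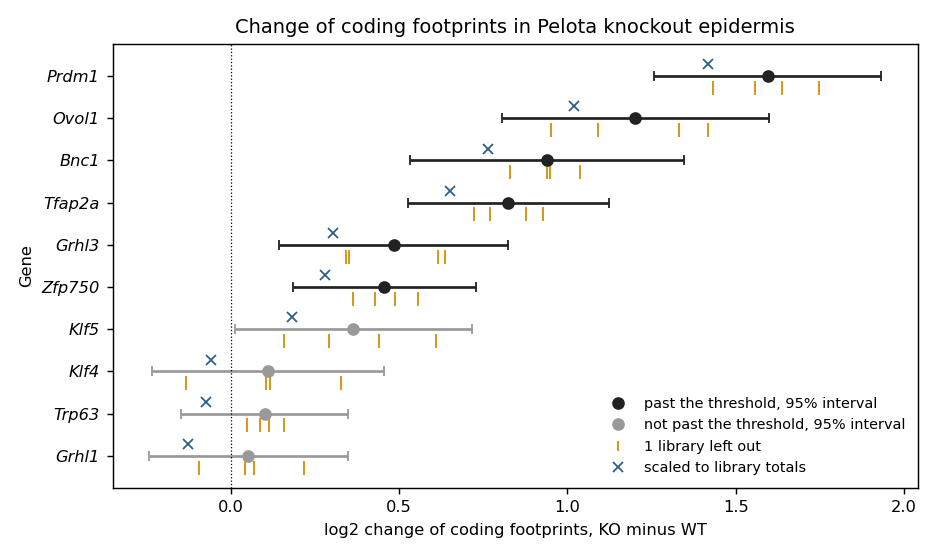
log2 change of coding footprints (KO minus WT, horizontal axis) of the 10 genes, with 95% intervals from edgeR over 2 KO and 2 WT libraries; ticks show the value with 1 library left out and crosses the value scaled to library totals. Prdm1 stands highest at 1.60 and Ovol1 next at 1.20, while the intervals of Klf4, Trp63 and Grhl1 span 0.

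Of the genes, 6 have a promoter window in the RefSeq table (GRCm38.p6; 250 bases before to 50 after the start, 8 windows in all): Prdm1, Bnc1, Tfap2a and Grhl3, which rose, and Klf4 and Grhl1, which were not called. The footprints themselves say nothing of promoters; the stretches are shown because the searched motifs are those that members of the set, or of their families, recognise. Both strands were searched for CACCC (the core of the KLF box), GCCNNNGGC (AP-2, the family of Tfap2a), AACCGGTT (Grainyhead, the family of Grhl1 and Grhl3), GAAAGT (a core bound by the Prdm1 protein) and CCGTTA (bound by OVO proteins such as Ovol1). Each stretch lies upstream of the start and is written 5′ to 3′ on the gene's strand, with the motif or its reverse complement in capitals.
Bnc1, CACCC, chr7:81992478-81992507, minus strand: gtggcctccccaCACCCcctcgagcgtcgc
Grhl3, CACCC, chr4:135573691-135573720, minus strand: attggccggctcCACCCagtcagccccccg
Tfap2a, CACCC, chr13:40735032-40735061, minus strand: aacttggggaagGGGTGtctcctgccttca
Grhl1, CACCC, chr12:24580626-24580655, plus strand: tcagcccactgtGGGTGgtgccatccttag
Bnc1, GCCNNNGGC, chr7:81992453-81992482, minus strand: gtcgcccgcaGCCCCCGGCggccggagtag
Grhl1, GCCNNNGGC, chr12:24572195-24572224, plus strand: cagaagctccGCCTTGGGCcggagctccgc
Klf4, GCCNNNGGC, chr4:55532476-55532505, minus strand: ataagtaagaagcgcgcggcgGCCGCCGGC
CACCC was in 5 of the 8 windows, of 4 genes, and in 57.5% of all 32851 windows. GCCNNNGGC was in 3 of the 8 windows and in 16.6% of all. AACCGGTT, GAAAGT and CCGTTA were in none of the 8 and in 0.146%, 14.3% and 2.76% of all. For Grhl1 the stretches come from different windows. A match is a run of letters and not a measured site.

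Prdm1, which encodes the repressor Blimp1 of granular keratinocytes and of sebaceous and lymphoid cells, had the largest change. Its coding region of 2412 nt (transcript uc007ezv.2) held 395 and 301 footprints in the knockout against 152 and 109 in wild type. Normalised to library size, both KO libraries (87.1 and 70.0 CPM) stood far above both WT libraries (26.7 and 25.2 CPM). The rise was 3.02-fold (log2 1.60, SE 0.15, edgeR adjusted p = 5.24e-05). Blimp1 is also made in other cells, and the sebaceous markers took less of the coding footprints in the knockout (0.0798% and 0.143%) than in wild type (0.448% and 0.435%), as did the T cell markers (0.0145% and 0.0159% against 0.0314% and 0.0291%). Of these lists, 9 of 10 sebaceous and 5 of 7 T cell markers were listed in all 4 libraries. The shares of suprabasal markers, given above, were higher in the knockout. The part of these markers in the change of Prdm1 was not tested.

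Ovol1, a zinc finger repressor that helps keratinocytes to leave the cell cycle, had 405 and 278 footprints over 744 coding nt (uc008gdu.1) in the knockout and 206 and 132 in wild type. The KO libraries differed from each other, at 89.3 and 64.6 CPM, but neither reached down to WT, at 36.2 and 30.5 CPM. The rise was 2.30-fold (log2 1.20, SE 0.18, edgeR adjusted p = 0.00075). Its relative Ovol2, which is known to keep epithelial cells from a mesenchymal state, had 35 and 20 footprints in wild type and 9 in KO replicate 1, and was unlisted in KO replicate 2, where an unlisted value can reach 7. Ovol2 was therefore not tested.

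Grhl3 and Zfp750, both needed for terminal differentiation and the barrier, rose less. Grhl3, a Grainyhead factor that drives barrier genes such as Tgm1, held 431 and 338 footprints over 1752 nt (uc008vgr.1) in the knockout against 388 and 241 in wild type. In CPM these were 95.1 and 78.6 against 68.3 and 55.6, with the lowest KO library above the highest WT library. The rise was 1.40-fold (log2 0.48, SE 0.15, edgeR adjusted p = 0.0308). It depended on single libraries: the adjusted p was 0.13 without KO replicate 1 (log2 0.34) and 0.15 without WT replicate 2 (0.35), and DESeq2 gave 0.0856. Zfp750 held 766 and 758 footprints over 2052 nt (uc007mvz.2) in the knockout against 765 and 506 in wild type, or 169 and 176 CPM against 135 and 117. The KO libraries were close to each other and above both WT libraries. The rise was 1.37-fold (log2 0.46, SE 0.12, edgeR adjusted p = 0.0153), and without WT replicate 2 it was 0.36 with an adjusted p of 0.0918.

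Klf4, a zinc finger factor required for the skin barrier, showed no called change. It held 632 and 826 footprints over 1392 nt (uc008sxk.2) in the knockout and 871 and 665 in wild type. At 139 and 192 CPM the KO libraries lay on either side of both WT libraries, at 153 each. The log2 change was 0.11 (95% interval −0.23 to 0.46, edgeR adjusted p = 0.599), and it was −0.13 without KO replicate 2 and 0.33 without KO replicate 1. Grhl1, a Grainyhead factor of desmosomal cadherin genes and hair anchorage, held 1116 and 1040 footprints over 1797 nt (uc007nem.2) in the knockout against 1485 and 905 in wild type. Its KO libraries, at 246 and 242 CPM, fell between the WT libraries, at 261 and 209. The log2 change was 0.05 (95% interval −0.24 to 0.35, edgeR adjusted p = 0.785), and −0.10 without WT replicate 2. Its paralog Grhl2 was not called either (−0.20, SE 0.15, edgeR adjusted p = 0.301; chosen after its value was seen).

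Among the factors of basal and early cells, Trp63 was close to level and Bnc1 and Tfap2a rose. Trp63 held 1541 and 1579 footprints over 1983 nt (uc007yup.2) in the knockout and 1863 and 1437 in wild type. In CPM these were 340 and 367 against 328 and 332, so KO stood above WT by little. The log2 change was 0.10 (95% interval −0.15 to 0.35, edgeR adjusted p = 0.503). The table holds 1 transcript for Trp63, so the isoforms with and without the transactivation domain, and their different 3′ ends, were not separated. Bnc1, a zinc finger protein of basal and germ cells that is linked to proliferation, was the least covered member, with 105 and 99 footprints over 2913 nt (uc009icu.1) in the knockout and 64 and 56 in wild type. These gave 23.2 and 23.01 CPM in the knockout against 11.3 and 12.9 in wild type, with no overlap. The rise was 1.92-fold (log2 0.94, SE 0.18, edgeR adjusted p = 0.00324). Its relative Bnc2, which is known from dermal and other mesenchymal cells, fell by 0.78 on the log2 scale (SE 0.23, edgeR adjusted p = 0.0245; chosen after its value was seen), beside the lower share of fibroblast markers in the knockout.

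Tfap2a, the AP-2 factor that acts on basal keratin and other epidermal genes, held 303 and 331 footprints over 1254 nt (uc007qej.2) in the knockout against 223 and 182 in wild type. The KO libraries, at 66.8 and 76.9 CPM, were both above WT, at 39.2 and 42.0. The rise was 1.77-fold (log2 0.82, SE 0.13, edgeR adjusted p = 0.00123). Klf5, a factor of proliferating keratinocytes, held 846 and 724 footprints over 1281 nt (uc007uvg.1) in the knockout and 906 and 502 in wild type. Its KO libraries, at 187 and 168 CPM, were above the WT libraries, which differed widely at 159 and 116. The log2 change was 0.36 (95% interval 0.01 to 0.72, edgeR adjusted p = 0.0948). With 1 library left out, the change was 0.61 without WT replicate 1 and 0.44 without KO replicate 2. It was 0.29 without KO replicate 1 and 0.16 without WT replicate 2. Klf5 passed in 3 of 9 alternatives. It did not pass with DESeq2 (0.38, adjusted p = 0.182) or with library totals (0.18, edgeR adjusted p = 0.414).

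Per length, the factors spanned a wide range of footprint levels. In WT, Trp63 stood highest at 166 ± 1.41 RPKM (footprints per kb of coding region, scaled to library size; mean ± SD, n = 2 per genotype, here and below). Grhl1 (131 ± 20.6), Klf4 (110 ± 0.136) and Klf5 (107 ± 24.0) followed; Klf4 and Klf5 did not differ beyond their spread, and Grhl1 lay above Klf4 by little more than its own SD. Zfp750 (61.2 ± 6.13) and Ovol1 (44.8 ± 5.48) came next, then Grhl3 (35.4 ± 5.10) and Tfap2a (32.4 ± 1.57), which did not differ beyond their spread. Prdm1 (10.8 ± 0.463) and Bnc1 (4.15 ± 0.405) were lowest.

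In KO the order at the top was Trp63 (178 ± 9.66), Klf5 (139 ± 10.1), Grhl1 (136 ± 1.75), Klf4 (119 ± 26.7) and Ovol1 (103 ± 23.5); Klf5, Grhl1, Klf4 and Ovol1 each differed from the next by no more than the spread. Zfp750 followed at 84.1 ± 2.49, Tfap2a at 57.3 ± 5.69 and Grhl3 at 49.6 ± 6.66, the last pair within their spread. Prdm1 reached 32.6 ± 5.03 and Bnc1 7.93 ± 0.0366, again the lowest. Among all tested genes Trp63 stood at the 93.3 percentile of level in wild type and the 92.4 percentile in the knockout, and Prdm1 at the 31.1 percentile in wild type and the 67.9 percentile in the knockout.

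**Figure D2:**
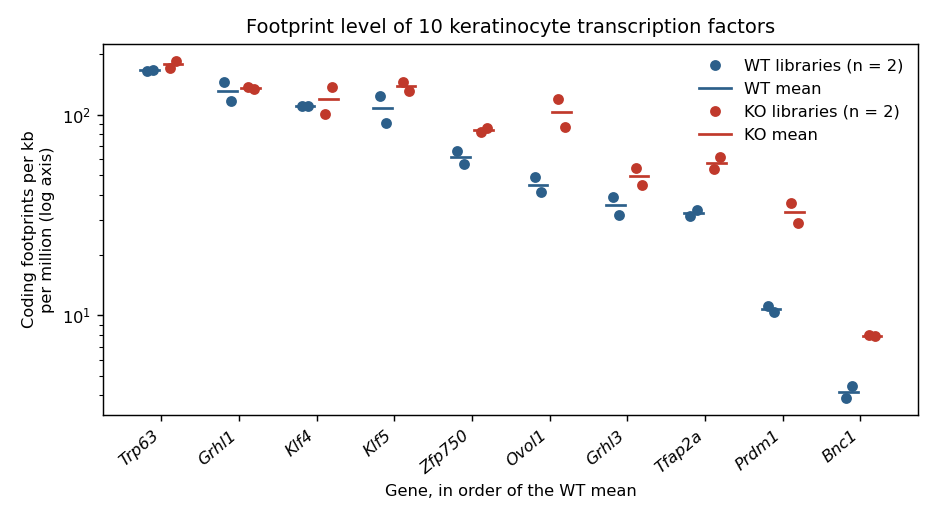
Coding footprints per kb scaled to library size (RPKM, log axis) of the 10 genes in each library, with the mean of each genotype as a bar, in the order of the WT mean. Trp63 is highest and Bnc1 lowest in both genotypes, and the gap between genotypes is widest for Prdm1 (10.8 in wild type and 32.6 in the knockout).

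The members were uneven in how many ribosomes sat on their 5′ UTR, the leader ahead of the coding region. By share Ovol1 stood highest, with 53 and 56 leader footprints in the knockout and 18 and 16 in wild type over 269 nt. These were 11.6% and 16.8% of its leader and coding footprints in the knockout (95% Wilson intervals 8.96 to 14.8 and 13.1 to 21.1; they cover counting error only) and 8.04% and 10.8% in wild type (5.14 to 12.3 and 6.76 to 16.8). Summed over the 4 libraries its leader took 12.3%, above 94.3% of 8303 transcripts with a leader of at least 50 nt and 100 coding footprints, whose median was 1.33%. Klf4 (6.64%, leader of 598 nt), Zfp750 (5.89%, 292 nt), Klf5 (4.70%, 298 nt), Grhl3 (3.72%, 190 nt) and Prdm1 (2.94%, 173 nt) were above that median too. Tfap2a (1.24%, 103 nt) and Grhl1 (0.219%, 146 nt) were below it. A share depends on the lengths of both regions, and the coding region of Ovol1 is short. Per nt, the leader density was 0.44 of the coding density for Zfp750, 0.422 for Prdm1, 0.387 for Ovol1 and 0.356 for Grhl3, against a median of 0.115 over the same transcripts. By this measure Zfp750 and Prdm1 stood above Ovol1.

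Trp63 had no leader footprint in any library over a counted leader region of 519 nt, beside 6420 coding footprints. A count of 0, taken to allow up to 3 counts, limits the share to 0.161% to 0.209% per library, and the upper 95% Wilson bounds are 0.206% to 0.267%. Of 138 transcripts with a leader of at least 300 nt and at least 3000 coding footprints, limits chosen after Trp63 was seen, 3 had none, and the median was 72.5 leader footprints. Trp63 is known to be read from an upstream and an internal promoter, the latter giving the ΔN form that prevails in keratinocytes; which leader ribosomes used in these cells was not tested. The counted leader region of Bnc1 is 3 nt, and it had no footprint.

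**Figure D3:**
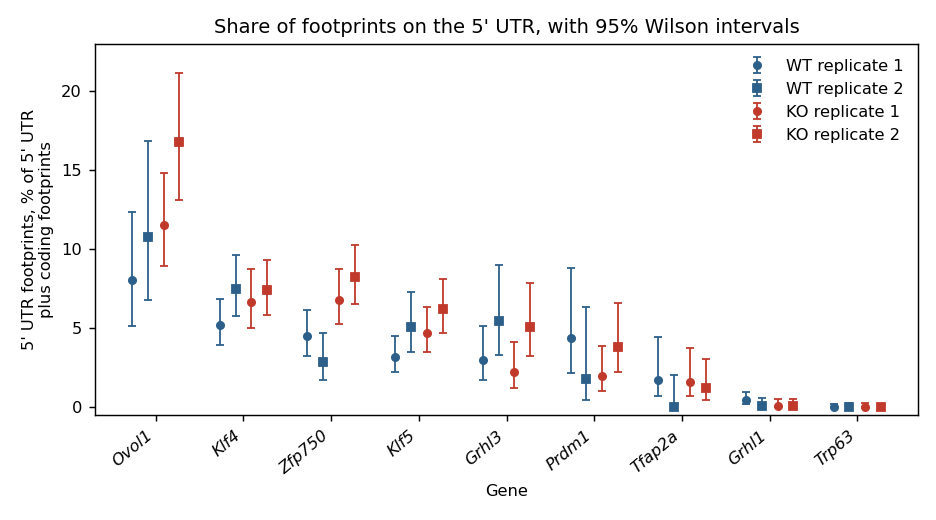
Footprints on the 5′ UTR as a percentage of 5′ UTR plus coding footprints for 9 genes (Bnc1, with a leader of 3 nt, is left out), 1 point per library with 95% Wilson intervals. Ovol1 is highest (8.04% to 16.8%), both KO libraries are above both WT libraries for Ovol1 and Zfp750, and Trp63 is at 0 throughout.

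Leader footprints were tested for the 5 members with at least 10 in at least 2 libraries: Klf4, Klf5, Grhl3, Ovol1 and Zfp750. The other 5 had between 0 and 12 leader footprints in a library and were not tested. Across the whole table leaders took 1.43% and 1.66% of leader and coding footprints in the knockout and 1.07% and 0.986% in wild type, so the scaling matters here. With TMM over the leader counts, which sets the typical leader to about no change, Ovol1 rose (log2 1.06, SE 0.31, edgeR adjusted p = 0.0149) and the other 4 were not called; 23.7% of 1618 tested leaders were called, 11.4% higher and 12.3% lower. The Ovol1 call was lost without WT replicate 1 (0.82, adjusted p = 0.192), with DESeq2 (1.03, adjusted p = 0.221) and with the replicate block (1.05, adjusted p = 0.0724). With the library sizes of the coding counts, which moved the median leader by 0.79, Ovol1 (1.85), Zfp750 (1.48) and Klf5 (0.83) all rose, as did 39.1% of all leaders.

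None of these 5 passed the test of the leader to coding ratio, at a background of 1.17% of 1618 genes called, 0.494% higher and 0.68% lower. Unadjusted p-values of the 5 ran from 0.0533 (Klf4) to 0.880 (Ovol1), all above 0.05. Ovol1 rose on both regions, and its ratio moved by −0.05 (95% interval −0.82 to 0.71), an interval that leaves room for large shifts; the value stood at 0.67 with coding library sizes. Zfp750 had 56 and 68 leader footprints in the knockout against 36 and 15 in wild type, a share of 6.81% and 8.23% against 4.49% and 2.88%, with no overlap between genotypes. Ovol1 showed no overlap in share either, the other 7 members with a leader of at least 50 nt did not show this order, and 31.1% of the 8303 transcripts did. The ratio of Zfp750 moved by 0.31 (SE 0.28, edgeR adjusted p = 0.622), and with coding library sizes by 1.04 (adjusted p = 0.0152), where 29.6% of all genes were called higher. Klf4 had 45 and 66 leader footprints in the knockout and 48 and 54 in wild type, and its ratio stood at −0.56 (SE 0.27, edgeR adjusted p = 0.290) but at 0.18 with coding library sizes. Klf5, with 42 and 48 in the knockout and 30 and 27 in wild type, was at −0.25 (SE 0.31), or 0.47 with coding sizes, and Grhl3, with 10 and 18 against 12 and 14, at −0.93 (SE 0.49), or −0.20.

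On the 3′ UTR the 10 genes together had 19 and 23 footprints in the knockout and 33 and 16 in wild type, too few for a test of any member. Klf4 had the most, with 26 over the 4 libraries. Prdm1 had 3 and 2 in the knockout and 0 in both WT libraries, and its difference was not detectable at this depth.

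Of 23 relatives of the 10 factors, 20 were tested; 5 rose (25%, against 19.9% of all tested genes), 6 fell (30%, against 19.1%) and 9 were not called, with a median log2 change of −0.33 (−0.02 over all genes). The number that rose was 1 with library totals and 3 with DESeq2, without KO replicate 2 and without WT replicate 2. The number that fell was 2 without KO replicate 1 and 3 with DESeq2 and without WT replicate 2. Tfap2b, another AP-2 factor, fell most, from 127 and 79 footprints in wild type to 20 and 24 in the knockout (log2 −2.03, SE 0.24, edgeR adjusted p = 0.00021), while Tfap2a rose and Tfap2c, its partner in epidermal development, rose by 0.60 (SE 0.15, adjusted p = 0.012; chosen after its value was seen). Trp73, the p73 relative of p63, rose by 1.04 (SE 0.23, edgeR adjusted p = 0.00582). Among KLF factors, Klf11, a TGF-β-responsive repressor, fell by 1.00 (SE 0.23, adjusted p = 0.00881) and Klf2, a factor of endothelium and T cells, by 0.89 (SE 0.26, adjusted p = 0.0242) on the log2 scale. Klf2 stood at −0.51 without KO replicate 1 and at −0.71 without WT replicate 2, and passed in neither. With unlisted values at 0 Klf2 did not pass either (−0.89, edgeR adjusted p = 0.0774). The endothelial markers took 0.0227% and 0.0244% of coding footprints in the knockout against 0.0288% and 0.0311% in wild type, and 6 of 7 were listed in every library. Prdm4 was unlisted in 2 libraries and was not tested.

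Of 46 other epidermal transcription factors, 41 were tested; 13 rose (31.7%), 6 fell (14.6%) and 22 were not called, with a median of 0.17; the shares over all tested genes were 19.9% and 19.1%. The number that fell was 10 with library totals and 3 with DESeq2. The largest rises were those of 2 ETS factors: Elf5, known from the differentiation of glandular epithelia and keratinocytes, rose from 10 and 9 footprints in wild type to 70 and 58 in the knockout (log2 2.91, SE 0.28, edgeR adjusted p = 6.62e-05), and Ehf, an epithelial ETS factor, from 90 and 61 to 295 and 258 (2.06, SE 0.15), while Ets1 was not called (−0.0032, SE 0.14, adjusted p = 0.988; chosen after its value was seen). Elf3, of the same family, had 22 and 25 in the knockout and was unlisted in wild type, where an unlisted value can reach 10, and the AP-1 subunit Fosl1 had 29 and 40 in the knockout and was unlisted in wild type, where it can reach 7. Gata3, known from the hair follicle's inner root sheath and from lymphocytes, fell by 1.34 on the log2 scale (SE 0.16). T cell markers took a lower share in the knockout, as given above. The hair list given below, a sum over hair shaft and inner root sheath keratins, took a higher one. The inner root sheath keratins were not summed alone. The part of either list in the change of Gata3 was not tested. Msx2, a hair matrix homeobox factor, rose by 1.35 (SE 0.41, edgeR adjusted p = 0.0272), but stood at 0.60 without KO replicate 1 and lost its call also without either WT library (1.35 in each case). With unlisted values at 0 Msx2 did not pass either (1.35, edgeR adjusted p = 0.0858). A hair list of hair shaft keratins and the inner root sheath keratins Krt25, Krt27 and Krt71 took 0.338% and 0.131% in the knockout. In wild type it took 0.0316% and 0.0262%. Of this list, 5 of 11 were listed in every library, and Krt83 and Krt85 were listed in none. Batf3, Lef1 and Tcf7l1 were unlisted in at least 1 library and were not tested.

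**Figure D4:**
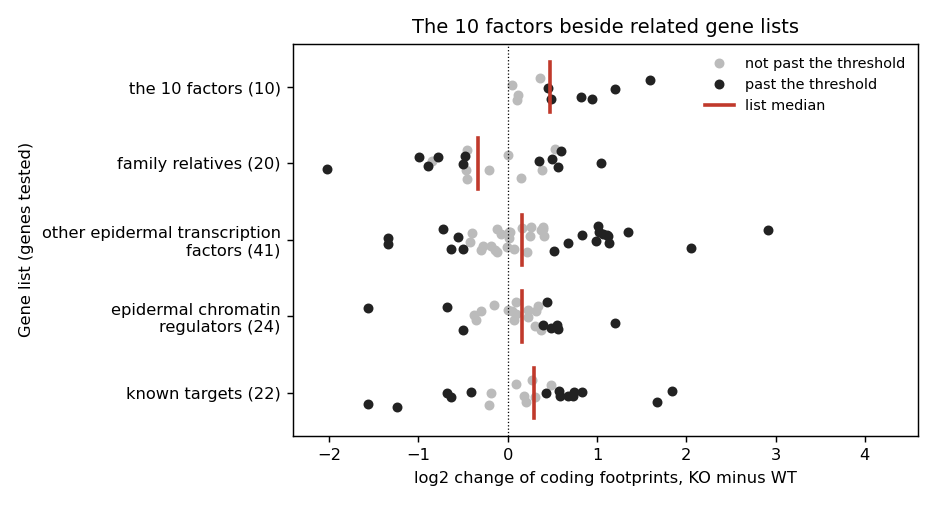
log2 change of coding footprints (KO minus WT) of each tested gene in the 10-gene set and in 4 related lists; red bars are list medians and dark points passed the test. The 10 factors all lie above 0 with a median of 0.47 (3 of them below 0 when scaled to library totals), while the other lists spread to both sides, from −2.03 (Tfap2b) to 2.91 (Elf5).

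Of 22 genes that the factors are known to act on, all tested, 9 rose (40.9%, against 19.9% of all tested genes), 5 fell (22.7%, against 19.1%) and 8 were not called, with a median of 0.29. The number that fell was 3 with DESeq2, without WT replicate 1 and with unlisted values at 0. Krt14, the basal keratin that p63 and AP-2 factors act on, rose 3.59-fold (10760 ± 795 CPM in the knockout against 3001 ± 456 in wild type, log2 1.84, SE 0.17, edgeR adjusted p = 4.7e-05). Tgm1, the cross-linking enzyme of the cornified envelope and a known target of Grhl3, rose 3.20-fold (290 ± 16.0 against 90.6 ± 0.783 CPM, log2 1.68, SE 0.12). Among the targets of p63 that fell were Satb1, a genome organiser, by 1.57 on the log2 scale (7.56 ± 1.48 against 22.4 ± 2.93 CPM, SE 0.22, edgeR adjusted p = 0.000623), and Fgfr2, a receptor for keratinocyte growth factors, by 1.24 (58.2 ± 11.9 against 138 ± 20.3 CPM, SE 0.17). Satb1 is also a gene of T cells and Fgfr2 one of sebaceous glands, and the markers of both stood at lower shares in the knockout as given above. So did the basal markers without Krt5 and Krt14. The part of any of these markers in the falls of Satb1 and Fgfr2 was not tested.

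Among 24 chromatin regulators of the epidermis, 6 rose (25%), 3 fell (12.5%) and 15 were not called, with a median of 0.16, beside 19.9% and 19.1% of all tested genes. Uhrf1, which guides maintenance DNA methylation in dividing cells, rose 2.30-fold (log2 1.20, SE 0.14, edgeR adjusted p = 0.000219). Satb1, given above, was among those that fell. Setd8, a histone H4 methyltransferase, rose by 0.57 (adjusted p = 0.0166) but lost its call without KO replicate 1 (0.52), without either WT library (0.58 and 0.55), with DESeq2 (0.58) and with library totals (0.39). The number of this list called higher was 1 with library totals, 3 with DESeq2, without KO replicate 1 and without WT replicate 1, and 2 without WT replicate 2.

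In profile over the 4 libraries, the genes nearest to Prdm1, the largest rise, were Rpl31, Rpl7a and Nt5c3, at Euclidean distances of 0.0579, 0.0608 and 0.0672 in centred log2 CPM. Those nearest to Grhl1, the lowest change, were Acaca, Mrpl4 and Cwc25, at 0.0271, 0.0329 and 0.0344. Both searches covered 10492 genes and only 4 libraries, so many genes lie at like distances.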

How the data were processed

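Ribosome profiling libraries (2 KO, 2 WT) were assigned to genotypes by title. The deposited tables hold raw footprint counts per transcript for the 5′ UTR, coding region and 3′ UTR on mm9 annotation, per the file headers, and the region lengths. Named without roles, per the submitters' processing notes, are TopHat2 2.0.10, Bowtie2 2.2.6, CASAVA 1.8, mm9 and hg19; the treatment of reads shared between genes was not given in the sources used here. The read-me describes one table for full-length and one for short footprints, but both are byte-identical, so the length class is unknown. Each transcript has 71 nt outside the 3 regions. The lengths given here are those of the counted regions, which may be shorter than the annotated ones. Counts are listed only above 0.01 coding footprints per nt, so an unlisted value is an upper bound.

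Coding counts of the 11019 transcripts listed in all 4 libraries, with at least 10 in at least 2 (10953), were tested with edgeR 4.0.16 in R 4.3.3 (quasi-likelihood test, two-sided, TMM factors 0.926, 0.957, 1.09 and 1.04 for KO replicates 1 and 2 and WT replicates 1 and 2; biological coefficient of variation 11.1%). SE is the log2 change divided by the root of F. The leader to coding ratio was tested as the genotype by region interaction with library as a factor. Alternatives used DESeq2 1.42.0, library totals, other filters, a replicate block and leaving out each library. In the last, the lone library is assumed to vary like the other group. The test was also run on simulated counts, drawn with its own fitted dispersions and scaling. Such counts cannot check the replicate spread or the choice of scaling. Promoter sequences come from RefSeq, GRCm38.p6. CPM values and RPKM levels were computed from the deposited counts.

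The members, lists and tests were chosen with earlier results of these data known. All members, up to 4 called genes of each list with the largest change, and unlisted genes of a list are named by rule; others are said to be chosen after their values were seen. Results of some genes that this rule names are not reported here. Median coding counts per listed transcript were 90 to 112. No molecular identifiers are stated, so intervals on shares cover counting error only.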

Additional observations from a re-analysis of the deposited data

How the results depend on the processing

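The number of the 10 factors called higher on the coding region was 6, with a range of 4 to 7 over the fits that left out 1 library, and it was 5 by DESeq2, 4 with library totals and 7 with the replicate block, where Klf5 passed (0.38, adjusted p = 0.0362); none was called lower under any of these. Prdm1, Ovol1, Bnc1 and Tfap2a passed in all 9 alternatives, Zfp750 in 7, Grhl3 in 4 and Klf5 in 3. Grhl3 also missed with unlisted values at 0 (0.49, adjusted p = 0.0705). Replicate numbers did not pair the libraries (correlation of same-numbered deviations −0.011), and on coding counts the block moved the count of called genes from 4277 to 4337.

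Over all genes DESeq2 called 2669 on the coding region, and leaving out 1 library gave 3279 to 3845; with library totals 33.2% of calls were higher, against 51.1% with TMM. Leader calls fell from 384 to 99 with DESeq2 and to 15 with the replicate block, rose to 686 with coding library sizes, and ran from 148 to 215 with 1 library left out. Of the members, leaders called higher numbered 3 with coding library sizes and 0 with DESeq2 and the replicate block (Ovol1 1.05, adjusted p = 0.0724), and ran from 0 to 1 without 1 library; those called lower ran from 0 to 1, Klf4 passing without WT replicate 1 (−0.91, adjusted p = 0.046). Ratio calls went from 19 to 493 with coding library sizes, where 1 member (Zfp750) was called higher, to 0 with the replicate block by edgeR (254 at an unadjusted p under 0.05), and ran from 13 to 55 with 1 library left out.

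Values that changed sign were, on coding counts, Trp63 (−0.0731), Klf4 (−0.0602) and Grhl1 (−0.13) with library totals, Klf4 with 1 library left out (−0.13 without KO replicate 2, up to 0.33 without KO replicate 1) and Grhl1 likewise (−0.10 without WT replicate 2, up to 0.22 without WT replicate 1). On leaders they were Klf4 (0.29) and Grhl3 (0.28) with coding library sizes and Klf5 with 1 library left out (−0.21 without WT replicate 1, up to 0.24 without KO replicate 1). For ratios they were Klf4 (0.18), Klf5 (0.47) and Ovol1 (0.67) with coding library sizes, Ovol1 with at least 5 counts (0.0305), and with 1 library left out Klf5 (−0.70 without WT replicate 1 to 0.0769 without WT replicate 2) and Ovol1 (−0.37 without WT replicate 1 to 0.25 without KO replicate 1, with 0.17 without WT replicate 2). The causes were not tested. Depth limits the leaders, where the 5 tested members had 10 to 68 footprints per library, and no member's 3′ UTR had enough for a test.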
